A study of Mus musculus with 9 samples.

Results

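Flag immunoprecipitation of cells that carry Flag-tagged Hhex gave 429 summits, the highest points of enriched regions, and 224 of them (52.2%, 95% exact binomial interval 47.4 to 57.0) had a summit at the same place in cells whose labels name no Flag tag. These 224 shared summits are described here. They were chosen by position alone: a summit of the tagged library was taken when a summit of either untagged library lay on the same chromosome within 250 bp. The other 205 summits of the tagged library had no such partner. The sharing itself is therefore the choice and not a result, and the scores of the same peak calls are given as a description with no test.

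The libraries came from mouse MLL-ENL leukemia cells of 3 genotypes, all in the same leukemia: floxed (fl), deleted (ΔERT2), and deleted with Flag-tagged Hhex added (ΔERT2 + Hhex-F, called rescue). The gene that is floxed and deleted is not named in the labels, and neither are the promoter that drives Hhex-F, the age of the animals or whether a line is 1 clone. H3K27me3, H3K4me3 and the M2 Flag antibody were each profiled once per genotype, in 9 libraries, so no genotype has a replicate, and the genotypes are compared without a test. Of 12 myeloid, MLL-leukemia and leukocyte genes, 8 had a mean of at least 20 H3K4me3 counts, Hoxa9 and Spi1 among them. Meis1 had 1 to 4 counts and Ptprc had 0 in every library, and none of 15 genes of B cell, T cell, erythroid, liver, neural or stromal cells reached 20.

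The M2 antibody binds the short Flag peptide, so a precipitate from cells without the tag holds DNA that reached the beads by another route. Sites that recur in such precipitates are known from many ChIP studies to include repeats that an assembly holds in too few copies, and unplaced contigs. Hhex is a homeodomain transcription factor of blood progenitors, endoderm and liver, and homeodomains bind short sites with a TAAT core. H3K4me3 marks promoters that are in use, and H3K27me3 is placed by Polycomb repressive complex 2 on silent genes.

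Of the 217 shared summits on chromosomes whose transcription starts were used here, 1 lay in the 250 bases upstream of an annotated transcription start, at Pgk1, which encodes the glycolytic enzyme phosphoglycerate kinase. None of the 196 unshared rescue summits on these chromosomes did. That promoter sequence (RefSeq, GRCm38.p6, chrX:106186850-106187099, plus strand) and the one at Hhex (chr19:37434591-37434840, plus strand) are shown because these were the genes with 1 of those 217 summits within 1 kb of a start. In the Pgk1 sequence the capitals mark 21 bases centred on the rescue summit (base 166) and, downstream, 21 centred on the floxed summit (base 224). In the Hhex sequence they mark GGGCGG, a letter pattern of GC boxes.
Pgk1: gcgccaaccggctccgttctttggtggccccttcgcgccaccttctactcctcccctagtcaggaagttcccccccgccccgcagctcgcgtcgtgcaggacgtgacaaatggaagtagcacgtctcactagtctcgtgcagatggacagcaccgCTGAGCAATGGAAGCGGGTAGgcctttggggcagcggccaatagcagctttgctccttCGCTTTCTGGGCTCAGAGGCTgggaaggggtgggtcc
Hhex: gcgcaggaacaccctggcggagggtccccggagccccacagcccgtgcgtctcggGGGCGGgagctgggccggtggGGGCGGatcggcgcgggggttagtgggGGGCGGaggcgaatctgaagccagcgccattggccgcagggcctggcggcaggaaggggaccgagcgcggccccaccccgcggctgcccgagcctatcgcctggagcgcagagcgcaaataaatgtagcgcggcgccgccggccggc
The Pgk1 stretch was 62.8% G and C with 17 CG pairs, and the Hhex stretch 76.0% with 32. The medians over all 32851 RefSeq promoters of the same 250 bases were 52.4% and 6. GGGCGG, searched on both strands, occurred 1 time at Pgk1 and 3 times at Hhex, and in 32.7% of all promoters. TAAT, also searched on both strands, occurred in neither stretch and in 54.9% of all promoters. Whether other shared summits lie in repeats or in GC-rich sequence was not analysed here.

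The shared summits fell into 3 classes by partner. Both untagged libraries had a summit at 115 of them, floxed alone at 80 and deleted alone at 29. Between rescue and floxed the 195 common sites were 45.5% of the rescue list and 41.1% of the 475 floxed summits. Between rescue and deleted the 144 common sites were 33.6% of the rescue list and 65.5% of the 220 deleted summits. The untagged libraries shared 133 sites with each other, which were 28% of the floxed list and 60.5% of the deleted list. Of these 133, only 18 had no partner in rescue.

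Partners lay close together, far inside the limit. The nearer partner was at a median of 12 bp from the rescue summit, and 196 of 224 (87.5%) had it within 50 bp. The median was 14 bp for floxed partners and 18.5 bp for deleted partners. Direction was even, with the floxed summit at the higher coordinate at 94 sites, at the lower at 96 and on the same base at 5. For deleted the counts were 69, 74 and 1. The last summits inside the limit were at chr13:33318323, near the protease inhibitor gene Serpinb9f, with its partner 167 bp away, at chr5:146261117 in the Mediator kinase gene Cdk8 (182 bp), and at chr17:39847101 in the ribosomal RNA repeat Rn18s-rs5 (219 bp). The first outside were at chr14:44394504 (252 bp, score 1.47), chrX:50814330 (528 bp) and chr1:29894441 (1437 bp). Few summits thus sat near the limit on either side.

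**Figure D1:**
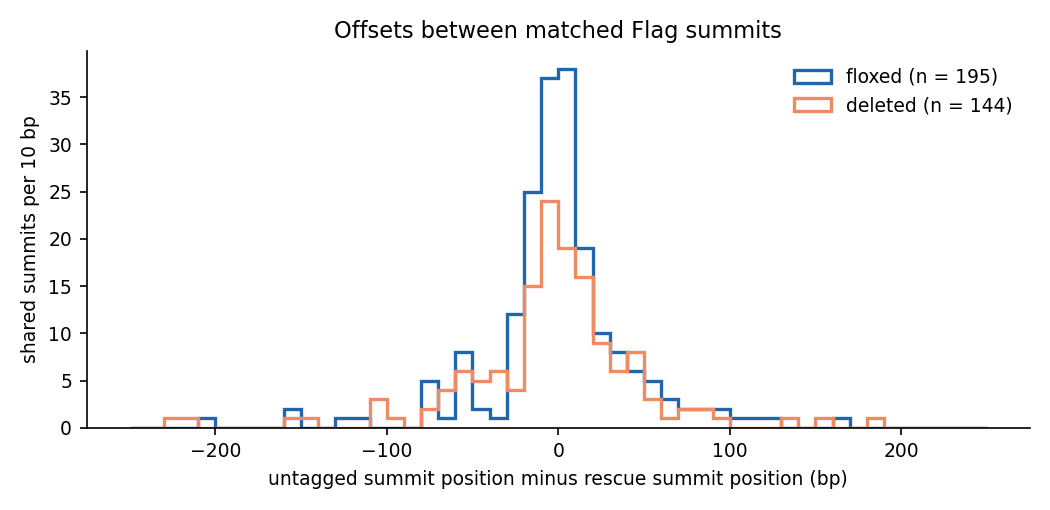
Position of the untagged summit minus that of the rescue summit in bp, as counts of shared summits per 10 bp, for 195 floxed and 144 deleted partners. Both distributions centre near 0, and 214 of the 224 nearer partners lie within 100 bp.

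Shared summits scored higher than the rest of the rescue list. The authors' score, a −log10 value for each summit, is used here only to rank or describe summits within a list. In the rescue list the median score was 7.59 for shared summits (95% interval 6.83 to 8.24, range 1.77 to 307) and 4.50 for the others (3.55 to 5.15, maximum 57.8). Summits found in both untagged libraries had a median of 9.96, those found in floxed alone 6.17 and those in deleted alone 6.57. The same order held within the untagged lists. Floxed summits with a rescue partner had a median of 7.85 against 4.83 for those without, and deleted summits 9.55 against 6.92.

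Sharing was most frequent at the top of the rescue list. Of the 10 highest rescue summits 9 were shared, of the 20 highest 17, and of the 50 highest 43 (86.0%). Of the 43 lowest, 3 were shared (6.98%). Equal scores cross the edge of this bin and were split by position, so its share depends on that order. At the low end many summits carried an identical score: 73 rescue summits scored 3.55, and 63 of these were unshared, 30.7% of the unshared summits. The lowest shared summit, at chr4:3089988, scored 1.77.

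**Figure D2:**
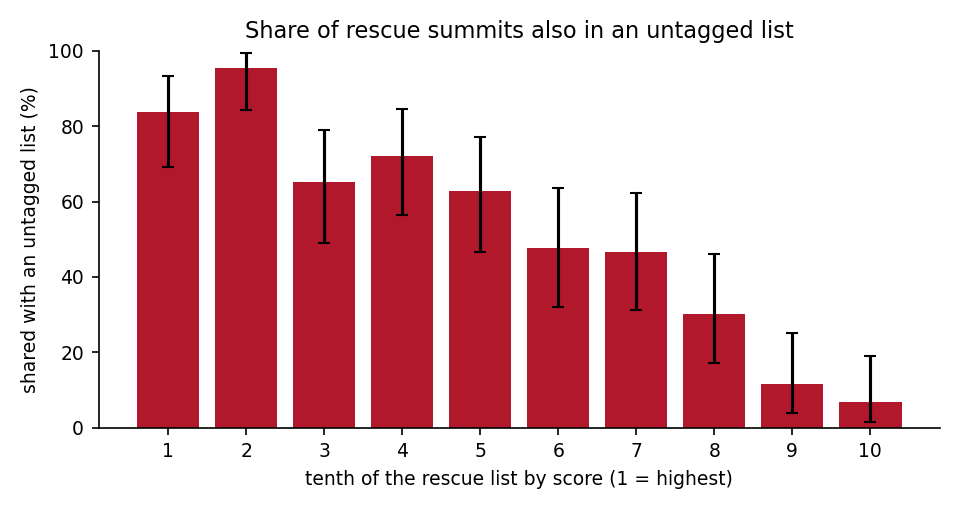
Percentage of rescue summits shared with an untagged list in 10 bins of the rescue list by score, from highest to lowest; bars are percentages and whiskers 95% exact binomial intervals that take summits as independent draws. The share falls from 83.7% and 95.3% in the first bins to 6.98% in the last. Summits with equal scores were placed in bins by position, which affects the low bins most.

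**Figure D3:**
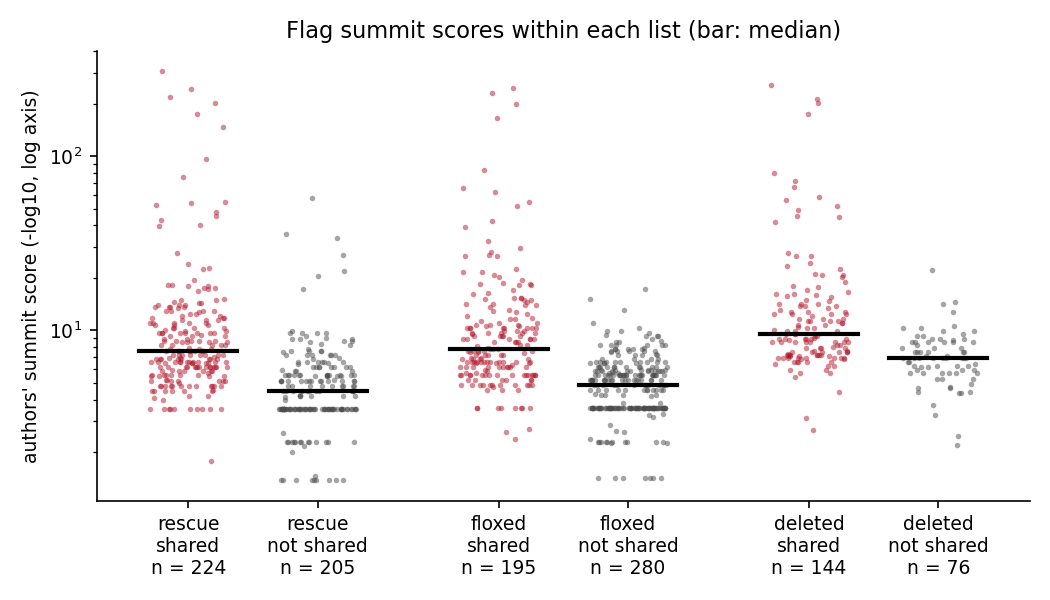
Authors' −log10 summit score on a log axis for each summit of the 3 lists, shared between rescue and that untagged list (for rescue, with either) or not; black bars are medians. In each list the shared summits hold the highest scores, up to 307 in rescue, 245 in floxed and 256 in deleted.

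The 4 sites at chr9, chr2, chr12 and chr6 led both untagged lists in one order and were still among the 6 highest in rescue. The summit at chr9:35305503, in the long non-coding RNA gene Gm33838, scored 201 in rescue, 245 in floxed and 256 in deleted, at ranks 4, 1 and 1. The summit at chr2:98666828, with no gene within 10 kb, scored 219, 230 and 213, at ranks 3, 2 and 2. The summit at chr12:3110029, also without a gene within 10 kb, scored 175, 199 and 202, at ranks 5, 3 and 3. The summit at chr6:103649257 scored 147, 166 and 175, at ranks 6, 4 and 4, and lies in Chl1, which encodes a neural cell adhesion molecule. These sites stood at the head of all 3 lists, with or without the tag.

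A further group kept its place just below them. The summit at chrX:143483122 scored 53.9 in rescue, 65.3 in floxed and 72.0 in deleted. On chromosome 14, summits at 19415868, 19417361 and 19418830 lay 1493 and 1469 bp apart. They scored 52.5, 47.5 and 45.4 in rescue, 61.9, 54.6 and 42.3 in floxed, and 66.7, 57.9 and 45.5 in deleted. The summit at chr5:56123657 scored 42.8, 39.4 and 51.8. None of these had an annotated gene within 10 kb. A summit on the unplaced contig GL456396 scored 39.6 in rescue, 29.5 in floxed and 45.0 in deleted.

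Among the 16 highest rescue summits, sites at 3 genes did not follow this order. Those at Camk2b and Pgk1 and 2 of 3 at Hhex had a higher place in the rescue list than in the untagged lists. The highest rescue summit, at chr11:6006440, lies in Camk2b, the beta subunit of a calcium/calmodulin-dependent kinase that is abundant in neurons. It scored 307 in rescue, 82.8 in floxed and 79.7 in deleted, at ranks 1, 5 and 5. A second Camk2b summit, at chr11:6011479, scored 54.5 in rescue at rank 10 and 7.90 in floxed at rank 118, and had no deleted partner. Both lie well inside the gene span, 36811 and 41850 bp from its lower end.

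At Pgk1 the scores lay at opposite ends of the lists. The rescue summit at chrX:106187015, 85 bp before the start site, scored 243 at rank 2. Its floxed partner, 58 bp away, scored 2.62 at rank 453 of 475. The deleted list had no summit within the limit. This site is therefore counted as shared only through a floxed summit from the lowest scores of its list.

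Hhex itself held 3 shared summits in a gene span of 5891 bp, all with partners in both untagged libraries. The summit at chr19:37435104, 263 bp inside the gene, scored 96.5 in rescue, 51.6 in floxed and 56.0 in deleted, at ranks 7, 9 and 9. The summit at chr19:37437332, 2491 bp inside, scored 40.3, 28.1 and 17.1, at ranks 16, 14 and 29. The summit at chr19:37439739, 4898 bp inside and 992 bp from the other end, scored 75.9, 26.7 and 20.1, at ranks 8, 17 and 25. Summits at Hhex were thus called in cells labelled as deleted and without the tag. Whether they lie in exons was not analysed here, and reads from the added Hhex-F copy and from the native gene cannot be told apart in these files.

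Ranks can be set on equal footing over the 115 sites found in all 3 lists. There the Camk2b summit was 1 in rescue and 5 in both untagged lists. The Hhex summits were 6, 7 and 13 in rescue, 9, 17 and 14 in floxed, and 9, 24 and 28 in deleted. On this footing all 3 Hhex summits placed higher in rescue than in both untagged lists, the last of them by 13 against 14 in floxed. Over the 115 sites, 38 ranked higher in rescue than in both untagged lists and 39 ranked lower than in both. Ranks of the same sites balance within each list, so these counts cannot show a net change with the tag. A site at place 5 can rise no further than place 1, so steps in rank are bounded at the head of the list. They are therefore no measure of how the Camk2b step compares with others. Lower in the list, where equal scores share a rank, there was room for larger steps up. A summit at chr6:22544069 in Gm38774 was 25 in rescue, 90 in floxed and 51 in deleted. A summit at chr16:29271693 in the cation-transport ATPase gene Atp13a5 was 29, 77 and 55. The opposite order also occurred. A summit at chr1:183299263 in Aida, which encodes an axin-interacting protein, was 113 in rescue, 111 in floxed and 17 in deleted. A summit at chr15:75086751, with no gene within 10 kb, was 85, 44 and 11. Across sites, the Spearman correlation of the scores was 0.60 between floxed and rescue (n = 195), 0.55 between deleted and rescue (n = 144) and 0.57 between floxed and deleted (n = 115). These are descriptions over sites that share libraries and peak caller.

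**Figure D4:**
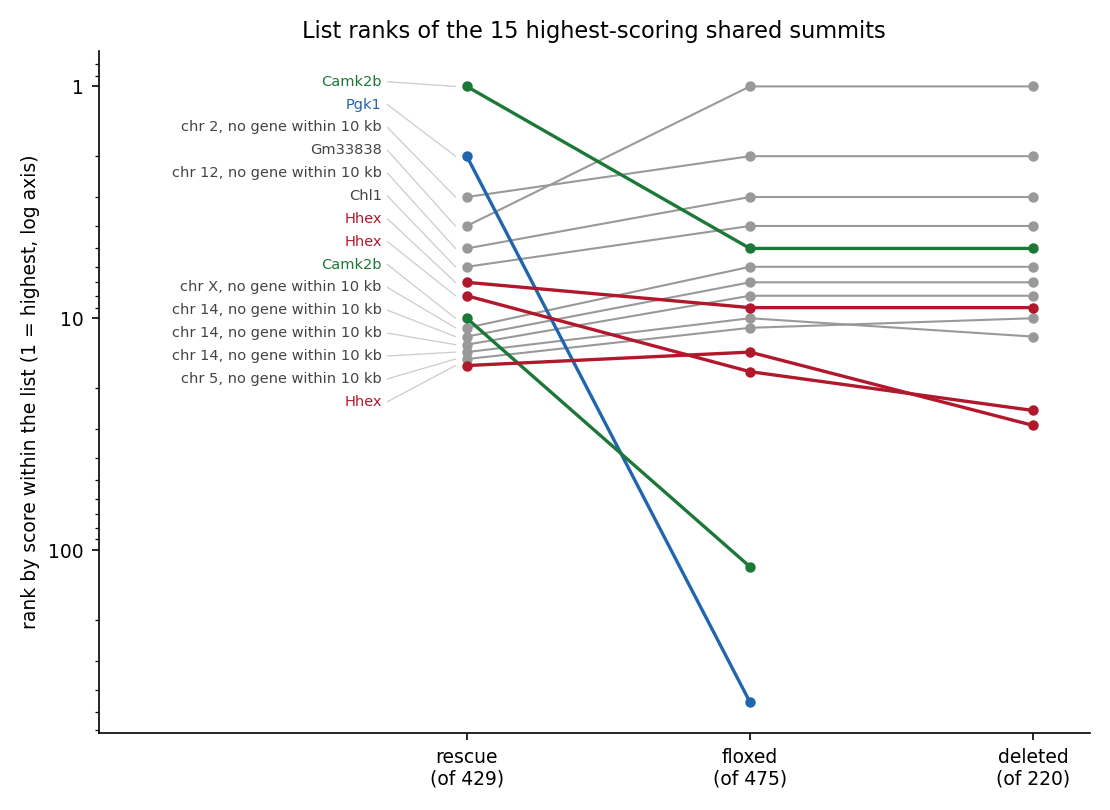
Rank by score within each Flag list (1 is highest, log axis) for the 15 highest-scoring shared summits, labelled by the gene that holds them or lies within 10 kb. Grey sites keep nearly the same place, while Pgk1 goes from rank 2 in rescue to 453 in floxed and the second Camk2b site from 10 to 118; neither has a deleted partner.

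Along the chromosomes the shared summits were mostly isolated. With gaps of at most 10 kb joined, 214 stood alone and 10 formed 4 clusters: the 3 at Hhex, the 3 on chromosome 14, the 2 in Camk2b (5039 bp apart) and 2 on chromosome 2 (4069 bp apart). The unshared rescue summits held 1 such cluster of 2. Each cluster of shared summits held at least 1 of the 16 highest rescue summits. Median gaps between neighbours were 7234 kb for shared and 7761 kb for unshared summits. Chromosome X held 21 shared summits (9.38%), chromosome 1 held 20 and chromosome 14 held 18. Chromosome 13 held 13 shared and 3 unshared summits. Unplaced contigs held 3 shared and 2 unshared summits. Chromosomes other than Y held 4 shared and 1 unshared summit in the first 3.2 Mb of the assembly, a limit set after the positions were seen.

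Most shared summits lay away from genes. Of the 221 on assembled chromosomes, 68 (30.8%, 24.8 to 37.3) were inside a RefSeq gene span. Gene spans cover 46.1% of the chromosomes between the first gene start and the last gene end. The 221 were not limited to that stretch. For the unshared summits the share was 63 of 203 (31.0%, 24.7 to 37.9), so the classes did not differ beyond counting error. A further 24 shared summits were within 10 kb of a gene, and 129 (58.4%, 51.6 to 64.9) were farther away. For the unshared summits these counts were 32 and 108 (53.2%, 46.1 to 60.2), with overlapping intervals, so distance from genes was not particular to the shared class. Within 1 kb of a transcription start there were 2 of 217 shared summits (0.922%, 0.112 to 3.29), at Hhex and Pgk1, and 6 of 196 unshared summits (3.06%, 1.13 to 6.54). Starts on chromosome 18 were not used here, so summits there are left out of these shares and of the median distances. The median distance to a start was 67.6 kb for shared and 80.6 kb for unshared summits.

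The 66 genes that held shared summits were 41 protein-coding genes, 17 long non-coding RNA genes, 6 pseudogenes, 1 transcribed pseudogene and the immunoglobulin kappa locus Igk. Hhex held 3, and Camk2b and Cped1, the latter a gene of a cadherin-like protein, held 2 each. The longest of the others after Igk were Dlg2, a synaptic scaffold, Pcdh15, a protocadherin of hair cells, and the glypican gene Gpc5. Next came Il1rapl1, a synaptic receptor, and Erbb4, a receptor tyrosine kinase. From Erbb4 to Dlg2 these genes span 1076693 to 1973059 bp. Long genes offer more bases for a summit, but whether length played a part at these genes was not tested.

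Over all 49997 genes of the RefSeq table, 90 (0.180%) held a shared summit or lay within 10 kb of one, so short lists have room for few or none. Of 14 lists, 3 had any gene tied to a shared summit in this way. Hhex was the 1 of 4 construct genes. Lars2, a mitochondrial leucyl-tRNA synthetase gene with a known high-signal stretch, was the 1 of 7 genes of high-signal regions. The high-signal list was longer, but only these 7 were found in the RefSeq table. Sites at its other genes could therefore not be counted. The Lars2 summit scored 5.81 in rescue, 7.59 in floxed and 13.7 in deleted. Of 2086 olfactory and vomeronasal receptor genes 4 were near a shared summit (Olfr1299, Olfr609, Olfr703 and Olfr712-ps1), a share of 0.192% beside the 0.180% of all genes, and 3 were near an unshared one. Cdkn2a, which the series title names, and its neighbour Cdkn2b had none. Neither did the 15 genes matched as MLL fusion targets, the 19 matched as myeloid genes, or the histone, ribosomal protein and tRNA lists. The mitochondrial, small RNA, nuclear RNA, housekeeping and antigen receptor segment lists had none either. Genes were matched by symbol or older symbol, and families by the start of the symbol, so a list can hold genes not meant for it. The rescue list had no summit on the mitochondrial chromosome.

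The histone libraries, which played no part in the choice of sites, were read at the genes tied to shared summits by span or within 10 kb. There were 90 such genes, 60 of them in the count tables. H3K4me3, counted in a 0.301 kb window per gene, reached a mean of 20 counts at 15 of 60 genes (25%, 14.7 to 37.9), beside 25.1% of all genes. H3K27me3, counted over the gene lengths the authors give, reached it at 45 of 60 (75%, 62.1 to 85.3), beside 39.8% of all genes. Those lengths can be shorter than the RefSeq span that tied a gene, as at B3galt1 (4978 against 557194 bp). The counted stretch therefore need not hold the summit. The tied genes had a median length of 136 kb against 12.3 kb for all genes, and the unshared summits' genes, with a median of 104 kb, reached it at 80.6%. Per kb, the median H3K27me3 level of the tied genes was 0.370 CPM (counts scaled to a fixed library total) in floxed, 0.393 in deleted and 0.362 in rescue. It was 0.204, 0.231 and 0.231 over all genes. For the genes of unshared summits it was 0.287, 0.338 and 0.240, also above all genes in each library. A higher median than over all genes was therefore not particular to shared summits.

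Genotypes were compared by a rule of size, a CPM ratio of at least 1.5 with a 95% exact interval that excludes 1. For H3K4me3, rescue against deleted was past it at 6 of 15 measured genes (40.0%, 16.3 to 67.7), beside 10.5% of all measured genes. Rescue against floxed was past it at 3 of 15, beside 5.84%, and deleted against floxed at 1 of 15, beside 7.41%. The calls went both ways. Hhex, Pgk1 and the protocadherin gene Pcdh7 were higher in rescue than in deleted, and the glypican gene Gpc5, Farp1 and Arhgap24 were lower.

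Over its H3K4me3 window Hhex had 60 counts (floxed), 68 (deleted) and 130 (rescue), or 93.0, 162 and 329 CPM. The ratio was 2.04 (1.51 to 2.77) for rescue to deleted, 3.54 (2.59 to 4.89) for rescue to floxed and 1.74 (1.21 to 2.50) for deleted to floxed. Pgk1 had 39, 19 and 73 counts, or 60.4, 45.2 and 185 CPM. The ratio was 4.09 (2.44 to 7.18) for rescue to deleted and 3.06 (2.04 to 4.63) for rescue to floxed. Hhex and Pgk1 were thus higher in rescue than in either other library, and they are also the genes found above with a shared summit within 1 kb of a start. Pgk1 counts as shared only through a floxed summit that scored 2.62, at rank 453. At Hhex, reads from the added Hhex-F copy and from the native gene cannot be told apart in these counts either. Why the counts at these genes were higher in rescue was not tested. Camk2b, which held the highest rescue summit, had 0, 0 and 1 H3K4me3 counts, too few for a comparison.

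The remaining measured genes had ratios nearer 1 or below it. Gpc5 had 105, 78 and 35 H3K4me3 counts, with a rescue to deleted ratio of 0.478 (0.311 to 0.721). Pcdh7 had 85, 49 and 78 counts, with a ratio of 1.69 (1.17 to 2.47). Cdk8 had 237, 149 and 173 counts and Lars2 116, 57 and 70, and neither passed the rule in any comparison. Chl1, which holds 1 of the 4 leading untagged sites, had 9, 12 and 5 counts.

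**Figure D5:**
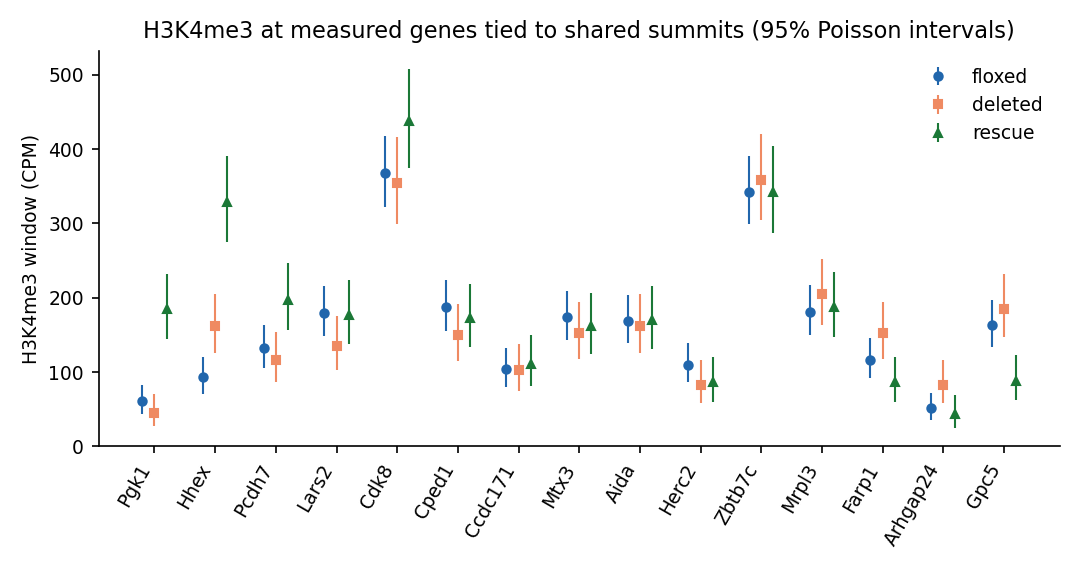
H3K4me3 level in CPM at the 15 measured genes tied to shared summits, 1 library per genotype, with 95% Poisson intervals that cover counting error only, ordered by the rescue to deleted ratio. Pgk1 (185 CPM) and Hhex (329 CPM) are higher in rescue than in floxed and deleted, and Gpc5 is lower.

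For H3K27me3 the calls at tied genes were no more frequent than over all measured genes. Deleted against floxed was past the rule at 1 of 45 genes (2.22%, 0.0562 to 11.8), beside 10.1%. Rescue against deleted was past it at 5 of 45 (11.1%, 3.71 to 24.1), beside 18.4%, and rescue against floxed at 4 of 45 (8.89%, 2.48 to 21.2), beside 13.8%. Cped1 had the widest ratio, with 468, 466 and 2013 counts for floxed, deleted and rescue, a rescue to deleted ratio of 2.61 (2.35 to 2.89). Erbb4 had 527, 525 and 1421 counts, a ratio of 1.63 (1.48 to 1.81). Ccl8, Ttc21b and 4932412D23Rik were lower in rescue than in deleted.

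The genes of the leading sites showed no call for this mark. Camk2b had 726, 756 and 1200 H3K27me3 counts, or 297, 298 and 285 CPM. Chl1 had 813, 788 and 1251 counts. Hhex had 332, 385 and 487 counts, 136, 152 and 116 CPM, and ranked at percentile 98.9 of all genes in the count table by level per kb. Pgk1 had 3, 2 and 7 counts, too few for a comparison. Hhex thus passed the count minimum for both marks, Camk2b and Chl1 for H3K27me3 alone, and Pgk1 for H3K4me3 alone.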

How the data were processed

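M2 Flag, H3K27me3 and H3K4me3 were profiled in 3 genotypes, with 1 library each. Tools named by the submitters' processing notes are MACS2 and featureCounts, on build mm10, without versions. The sources used here give no aligner. The authors deposited 3 Flag lists of summit positions with a −log10 score; whether it is of a p or a q value is not given. They deposited whole-number counts per gene for the histone marks, not normalised. Per the file columns, H3K27me3 was counted over gene lengths that can be shorter than the RefSeq spans. H3K4me3 was counted in a window whose position is not given.

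The members and lists used here were chosen with earlier results of these data known. Summits were matched within 250 bp, clusters joined at gaps of 10 kb, and genes taken from RefSeq GRCm38.p6, the assembly of mm10, without exons. Rows without a gene identifier (568, holding 0.608% to 0.739% of counts) were left out, and the genes kept are called named genes. Totals in named genes were 2444487, 2535576 and 4203349 for H3K27me3 and 645240, 420701 and 395133 for H3K4me3, for floxed, deleted and rescue. CPM is a count divided by this total. Genes whose counts averaged 20 or more over the libraries of a mark were compared by exact conditional binomial intervals, which cover counting error only; PCR duplicates are not separated, and intervals of shares take summits or genes as independent draws.

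The summits named were the 10 highest, the 5 highest found in all 3 lists, the 3 lowest and the 3 nearest the distance limit on each side, with their genes, genes and clusters with several summits, and list genes. Several summits tied for the lowest score but 1, so only the lowest is named. The summits at Aida, Gm5960, GL456396 and the chromosome 5 site, Gm38774 and Atp13a5, and the genes named for their histone calls or length were chosen after their values were seen. Work used Python 3.11.15, pandas 2.3.3, scipy 1.17.1, edgeR 4.0.16 and DESeq2 1.42.0 (the last pair for library scaling only). Alternatives were other distances, score limits, gaps, gene flanks, count minimums, folds and scalings. No input library was used here.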

Additional observations from a re-analysis of the deposited data

How the results depend on the processing

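Of the alternatives tried, distances of 100 or 500 bp and sharing with floxed alone kept the number of shared summits within 1.5 times of 224. Keeping only summits at or above the median score of their list left 130 summits with a median score of 10.3, and sharing with the deleted list alone 144 with a median of 8.77. At gaps of 2 kb 1 cluster remained. The share in or near a gene was 33.0% within 5 kb and 76.5% within 50 kb. The share of tied genes with H3K4me3 was 70.0% at any count and 3.33% at a mean of 100. For H3K27me3 it was 98.3% at any count, 61.7% at a mean of 100 and 91.3% for genes that hold the summit. These follow from the settings themselves.

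For the H3K27me3 calls, deleted against floxed fell from 1 to 0 at 100 bp, at or above the median score, at a mean of 100 and at 2-fold. Rescue against deleted gave 3 at or above the median score, 3 with the deleted list and 2 at 2-fold, and rescue against floxed 2 at or above it and 1 at 2-fold. For H3K4me3, deleted against floxed gave 0 at a mean of 100, at 2-fold and without Hhex, Pgk1 and Camk2b, a choice made after seeing the data. Rescue against deleted gave 3 at or above the median score, 0 at a mean of 100 (2 genes left) and 3 at 2-fold. Rescue against floxed gave 1 at or above the median score, 0 at a mean of 100 and 1 without the 3 genes. TMM or DESeq2 scaling and no filter left all counts of calls within 1.5 times.

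No paired analysis was possible because each genotype has 1 library per mark. The sequence context of summits was not run, since no genome was used here. With the count minimum, 15 tied genes were compared for H3K4me3 and 45 for H3K27me3. Pgk1 (H3K27me3) and Camk2b (H3K4me3) had too few counts for a comparison.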
